A study of Homo sapiens with 19 samples.

Results

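Gluconeogenesis is the making of new glucose, and its genes were followed here through knockdown of the chromatin remodeler INO80, knockdown of MCRS1 and inhibition of EZH2 in HepG2 cells. The members were chosen by symbol, namely PCK1, PCK2, G6PC, FBP1, PC, SLC37A4, SLC2A2, PPARGC1A and FOXO1, which makes 9 of the 34825 symbols in each of 2 tables of normalized mRNA counts. All 9 were in both tables. FBP1 fell below the minimum mean level for testing, set at 10 normalized counts, so that 8 of 9 members were tested in each table.

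HepG2 is an established human liver cancer cell line that keeps much of the hepatocyte programme. In the first experiment siRNA was added at 50 nM, either a non-targeting control called NTG or 1 of the INO80 siRNAs called siINO80#1 and siINO80#2, and each group has libraries A, B and C. In the second the cells were kept in DMSO or in 1 uM EPZ-6438 from 3 days before transfection and then received NTG or an siRNA against MCRS1. In DMSO there were 2 NTG and 3 siMCRS1 libraries, and in EPZ-6438 there were 3 NTG and 2 siMCRS1 libraries. RNA was taken 72 h after transfection in both experiments. INO80 is the ATPase of the INO80 remodeling complex, MCRS1 is a subunit of that complex and also of other complexes, and EPZ-6438 (tazemetostat) inhibits EZH2, the methyltransferase of Polycomb Repressive Complex 2. All groups are transfected cultures of a single cell line, and nothing in the sources says that the replicates came from separate cultures on separate days. The p-values therefore measure the spread between these libraries, which may be technical.

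In the liver, glucose is made from lactate, alanine and glycerol. Pyruvate carboxylase (PC) turns pyruvate into oxaloacetate in mitochondria, and phosphoenolpyruvate carboxykinase, cytosolic (PCK1) or mitochondrial (PCK2), turns oxaloacetate into phosphoenolpyruvate. Fructose-1,6-bisphosphatase (FBP1) works near the end of the pathway, after steps that run in both directions and are shared with glycolysis. Glucose-6-phosphate is then carried into the endoplasmic reticulum by SLC37A4 and hydrolysed there by glucose-6-phosphatase (G6PC), and glucose can leave the cell through the transporter GLUT2 (SLC2A2). In fasting, glucagon acting through CREB and the coactivator PGC-1alpha (PPARGC1A) raises PCK1 and G6PC, and insulin lowers them in part by driving the transcription factor FOXO1 out of the nucleus.

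Depth ranged from 17093574 to 25369547 reads per library with INO80 siRNAs and their control and from 26038505 to 47397233 with siMCRS1 or EPZ-6438 and theirs, and 3 reads, taken as the lowest count worth a level, stood for 2.30 to 3.58 and 2.13 to 4.30 normalized counts. INO80 itself was 1278, 1338 and 1175 normalized counts in NTG against 576, 639 and 609 with siINO80#1 and 439.8, 456 and 483 with siINO80#2. MCRS1 was 1577 and 1283 in DMSO with NTG against 140.2, 83.7 and 119 with siMCRS1, and 1533, 1355 and 1201 against 126 and 90.5 in EPZ-6438. The targets thus fell in every library of their own siRNA, and INO80 was lower with siINO80#2 than with siINO80#1 by a log2 difference of -0.40 (adjusted p = 0.00577). INO80 was also lower with siMCRS1, by a log2 fold change of -0.27 in DMSO (adjusted p = 0.0387) and -0.35 in EPZ-6438 (adjusted p = 0.00966). All 9 hepatocyte markers examined, among them ALB, APOA1 and HNF4A, were expressed, with a summed level of 578951 to 1322059 normalized counts per library, while 8 markers of blood, endothelial and stromal cells summed to 1058 to 2040.3. In the INO80 experiment siINO80#2 C stood farthest from the rest of its own group. In such bulk libraries, fewer cells that express a gene and less of its RNA per cell cannot be told apart.

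The first question was how strongly each step of the pathway was expressed before any knockdown. Per kilobase of the main annotated transcript, PCK2 stood far above the others in NTG of the INO80 experiment, at 2209 normalized counts per kb ± 225 (SD, n = 3). PC (356 ± 15.8), SLC37A4 (330.2 ± 35.6) and SLC2A2 (317 ± 8.11) came next, then PCK1 (146 ± 84.6), FOXO1 (114 ± 12.8), PPARGC1A (54.6 ± 7.99), G6PC (32.5 ± 23.0) and FBP1 (1.71 ± 1.80), all as the mean level per kb ± SD over the same 3 libraries. In this order the libraries of PC and SLC37A4, of SLC37A4 and SLC2A2, of PCK1 and FOXO1, and of PPARGC1A and G6PC overlapped, whereas PCK2 did not overlap PC, SLC2A2 did not overlap PCK1, FOXO1 did not overlap PPARGC1A, and G6PC did not overlap FBP1. In DMSO with NTG, where the cells were handled differently and the table was normalized separately, the level per kb was again highest for PCK2 (2233) and lowest for G6PC (6.55) and FBP1 (5.84), with 2 libraries.

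The mitochondrial enzyme therefore made up most of the PEPCK mRNA. PCK1 was 6.08% ± 2.98 (SD, n = 3) of the summed PCK1 and PCK2 level per kb in NTG, 0.917% ± 0.396 with siINO80#1 and 1.81% ± 0.922 with siINO80#2. In the EPZ-6438 experiment it was 2.86% ± 0.991 in DMSO with NTG (n = 2), 0.921% ± 0.332 with siMCRS1 (n = 3), 5.30% ± 0.735 in EPZ-6438 with NTG (n = 3) and 1.96% ± 0.487 with siMCRS1 (n = 2). Every knockdown group had a lower share than its own NTG group, although siINO80#2 B at 2.85% came close to NTG B at 2.89%.

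Knockdown of INO80 lowered most of the tested members. With siINO80#1, 6 of 8 were called at an adjusted p under 0.05 (limma across all 14034 genes tested), all of them lower, where 41.6% of all genes tested were called. With siINO80#2 the same count, 6 of 8, was lower against 55.0% of all genes called and 28.4% called lower. The median log2 fold change of the 8 members was -0.73 with siINO80#1 and -1.75 with siINO80#2, and that of all genes tested was 0.00 in both. The 6 were PCK1, PCK2, G6PC, PPARGC1A, SLC37A4 and SLC2A2 with either siRNA. Both contrasts used the same 3 NTG libraries, so that they are not independent of each other.

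PCK1 (chr20:57561110-57568121, GRCh38.p14), the cytosolic PEPCK and the textbook target of fasting signals, showed the deepest fall. Its normalized counts were 600.0, 284 and 1013 in NTG A, B and C, 35.8, 21.8 and 60.3 with siINO80#1, and 29.2, 85.0 and 29.3 with siINO80#2. All 6 knockdown libraries lay below all 3 NTG libraries. The log2 fold change was -3.91 (SE 0.53, adjusted p = 0.000209) with siINO80#1 and -3.70 (SE 0.53, adjusted p = 0.000159) with siINO80#2, which left 6.22% and 7.56% of the NTG mean.

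PCK2 (chr14:24094171-24104125), the mitochondrial PEPCK, started from a far higher level and fell less on the log scale. It stood at 4319, 4823 and 5298 normalized counts in NTG, at 2069.8, 1988 and 2247 with siINO80#1, and at 1336, 1462 and 976 with siINO80#2. The 3 groups did not overlap. Its log2 fold change was -1.19 (SE 0.14, adjusted p = 6.96e-05) with siINO80#1 and -1.95 (SE 0.14, adjusted p = 1.43e-06) with siINO80#2. PCK2 lies within the span of NRL on the opposite strand, and the sources used here do not give a strand setting for the counting. NRL held 40.6 to 73.9 normalized counts in these libraries.

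G6PC (G6PC1 in RefSeq, chr17:42900799-42914438), the catalytic subunit of glucose-6-phosphatase, was low and uneven. It had 176, 25.7 and 204 normalized counts in NTG A, B and C, against 16.7, 11.9 and 26.2 with siINO80#1 and 14.6, 12.3 and 17.0 with siINO80#2. NTG B, which was also the lowest NTG library for PCK1, lay just under siINO80#1 C, so that NTG and siINO80#1 overlapped while siINO80#2 lay below all NTG libraries. The log2 fold change was -2.43 (SE 0.64, adjusted p = 0.0115) with siINO80#1 and -2.67 (SE 0.64, adjusted p = 0.0048) with siINO80#2. The size of the G6PC effect turned on that library, since without NTG B it was -3.37 and -3.62. The siINO80#1 call was lost without NTG A (adjusted p = 0.0509) and without NTG C (adjusted p = 0.0538).

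SLC37A4 and SLC2A2, which carry glucose-6-phosphate into the endoplasmic reticulum and glucose across the cell membrane, fell together with it. SLC37A4 (chr11:119024112-119030877) had 667, 636 and 779 normalized counts in NTG, 407, 363 and 426 with siINO80#1 and 178, 270.3 and 161 with siINO80#2. The log2 fold changes were -0.80 (SE 0.17, adjusted p = 0.00378) and -1.80 (SE 0.17, adjusted p = 1.06e-05). SLC2A2 (chr3:170996347-171026720) had 1014, 980.3 and 1031 in NTG, 687, 578 and 638 with siINO80#1 and 354, 325 and 259.8 with siINO80#2. Its log2 fold changes were -0.67 (SE 0.11, adjusted p = 0.000902) and -1.70 (SE 0.11, adjusted p = 1.18e-06). For both genes the 3 groups did not overlap, with NTG highest and siINO80#2 lowest. TRAPPC4, which meets the end of SLC37A4 on the opposite strand, had 787 to 867 normalized counts in NTG and 438 to 702 with the INO80 siRNAs, and its part in the counts of SLC37A4 was not tested.

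The coactivator PPARGC1A (chr4:23792021-24472905) fell modestly. It had 352, 289 and 389 normalized counts in NTG, 298, 234 and 215 with siINO80#1, and 137, 126 and 166 with siINO80#2. The fall with siINO80#2, a log2 fold change of -1.26 (SE 0.16, adjusted p = 7.41e-05), separated the groups. That with siINO80#1, -0.47 (SE 0.16, adjusted p = 0.0383), did not, since siINO80#1 A lay above NTG B, and the call was lost in 7 of 21 alternatives, with an adjusted p up to 0.142.

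PC and FOXO1 did not pass the test with either siRNA. PC (chr11:66848420-66958383), which supplies oxaloacetate, had 1478, 1507 and 1607 normalized counts in NTG, 1363, 1415 and 1584 with siINO80#1, and 1334, 1439 and 1017 with siINO80#2. Its log2 fold change was -0.08 (95% confidence interval -0.34 to 0.18) with siINO80#1 and -0.29 (-0.55 to -0.03, adjusted p = 0.0573) with siINO80#2. The latter passed when libraries were rescaled to equal totals (adjusted p = 0.046), under quantile normalization (0.045) and without siINO80#2 B (0.0157). LRFN4, which lies inside PC on the opposite strand, had 36.8 to 59.5 normalized counts in NTG and 206 to 254 with the INO80 siRNAs, and in the other experiment 94.8 to 154 with NTG and 314 to 482 with siMCRS1. Its part in the counts of PC was not tested. FOXO1 (chr13:40555667-40666641) had 671, 725 and 579 in NTG, 734, 755 and 666 with siINO80#1, and 598, 611 and 647 with siINO80#2. Its log2 fold change was 0.13 (-0.08 to 0.34) with siINO80#1 and -0.08 (-0.29 to 0.13) with siINO80#2, so that a change of over 0.34 in either direction lies outside both intervals. FOXO1 shares 23.0% of the 31-base words of its main transcript with FOXO1B and another annotated gene, the highest share among the members, and how reads were assigned between them was not tested.

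FBP1 (chr9:94603133-94640263) was close to undetected. It had 5, 1 and 1 reads in NTG A, B and C, 1, 0 and 1 with siINO80#1, and 0, 1 and 0 with siINO80#2. Both knockdowns, and NTG B and C, are under 3 reads per library, and a difference was not detectable at this depth.

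**Figure D1:**
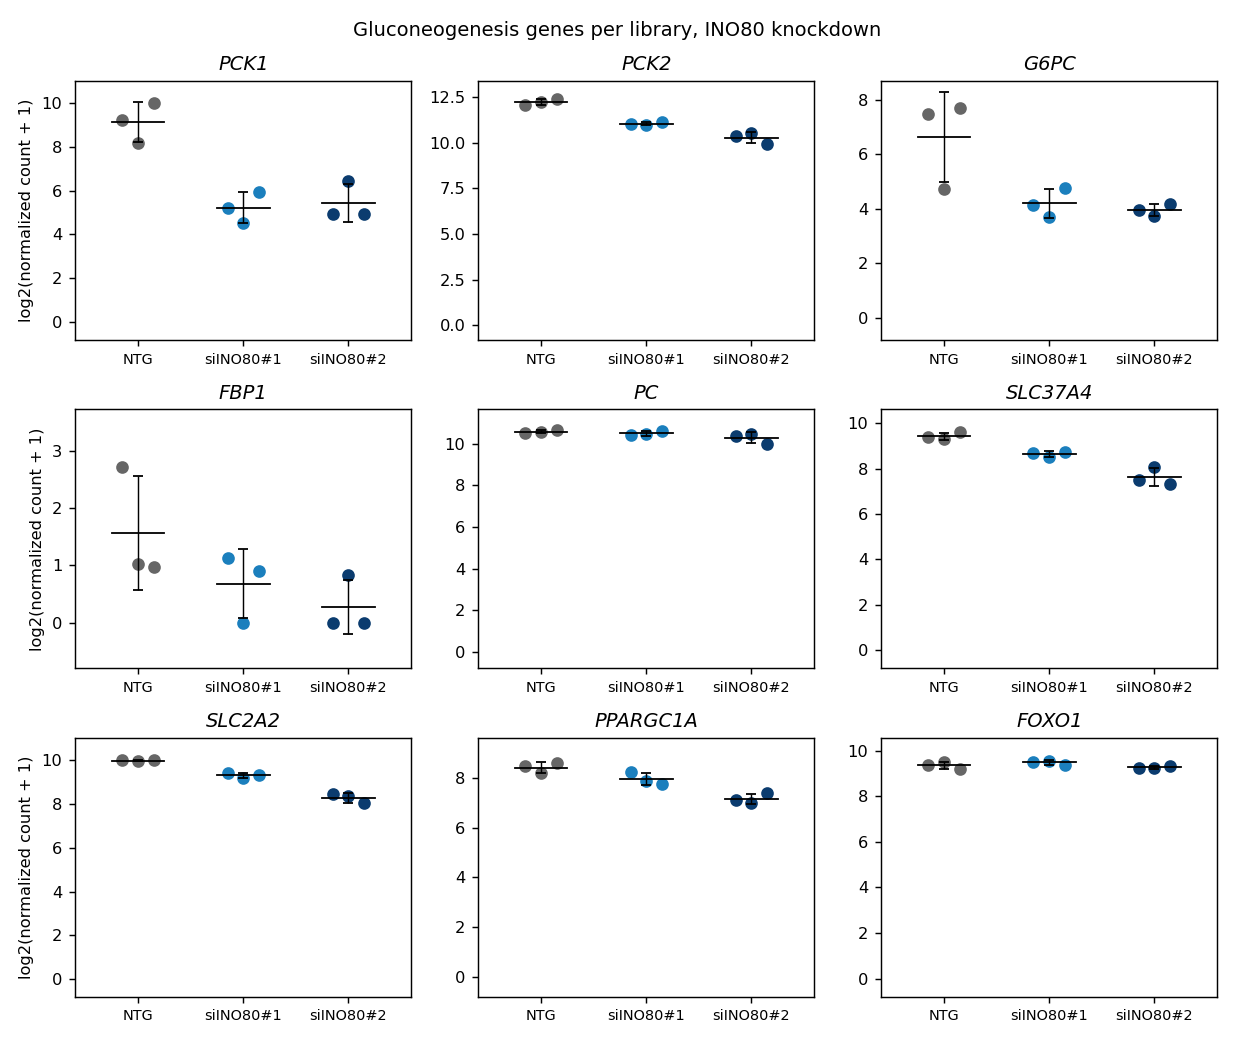
Level of each member as log2(normalized count + 1) (vertical axis, a log scale) in the 3 libraries each of NTG, siINO80#1 and siINO80#2 (points), with the mean (line) and SD (bar). PCK1 lies between 284 and 1013 normalized counts in NTG and between 21.8 and 85.0 in all 6 knockdown libraries, while FOXO1 stays between 579 and 755 throughout.

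The INO80 siRNAs differed from each other for some members. Of 8 members 4 were lower with siINO80#2 than with siINO80#1, against 22.1% of all genes called and 12.6% called lower. PCK2 differed by a log2 value of -0.76 (adjusted p = 0.0035), PPARGC1A by -0.79 (adjusted p = 0.00653), SLC37A4 by -1.003 (adjusted p = 0.00285) and SLC2A2 by -1.02 (adjusted p = 0.000336). PCK1 did not pass, with a difference of 0.20 and a 95% confidence interval of -0.97 to 1.37, nor did G6PC at -0.25 (-1.67 to 1.18). The interval of G6PC holds differences as large as those of the transporters, and that of PCK1 ends just short of them. PC, at -0.21 (-0.48 to 0.05, adjusted p = 0.225), and FOXO1, at -0.21 (-0.42 to -0.0039, adjusted p = 0.135), did not pass either, with narrower intervals. The 4 calls held in every alternative tried, including without siINO80#2 C.

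Knockdown of MCRS1 was followed in other libraries. In DMSO, the 6 members named above were lower, which is 6 of 8, where 47.7% of the 14312 genes tested were called and 24.6% called lower. In EPZ-6438, 8 of 8 were called, 7 lower and FOXO1 higher, where 53.7% of all genes were called. The median log2 fold change of the 8 members was -1.57 in DMSO and -1.71 in EPZ-6438, and that of all genes 0.00 and 0.01. Rescaling to equal totals moved the median of all genes to -0.23 in both contrasts and raised the lower share of all calls from 51.6% to 72.9% in DMSO and from 50.1% to 69.8% in EPZ-6438. Under it 7 of 8 members were lower in each contrast and none higher. The NTG libraries of the contrasts differ, but all 10 libraries share the estimate of spread.

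PCK1 again fell steeply. It had 371 and 203 normalized counts in DMSO with NTG against 32.3, 11.01 and 17.2 with siMCRS1, and 724, 642 and 578 in EPZ-6438 with NTG against 50.4 and 21.3 with siMCRS1. The log2 fold change was -3.83 (SE 0.45, adjusted p = 9.84e-05) in DMSO and -4.25 (SE 0.45, adjusted p = 3.36e-05) in EPZ-6438. All siMCRS1 libraries lay below all NTG libraries. In EPZ-6438 the value rests on 2 siMCRS1 libraries, and was -4.86 without A and -3.65 without B.

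PCK2 had 5079 and 4652 normalized counts in DMSO with NTG against 1263, 899.9 and 979.7 with siMCRS1, and 5588, 6160.1 and 5832 in EPZ-6438 with NTG against 1077 and 653. The log2 fold changes were -2.23 (SE 0.19, adjusted p = 2.38e-05) and -2.80 (SE 0.19, adjusted p = 5.18e-06). NTG and siMCRS1 did not overlap, and PCK2 still had the highest or second highest level per kb among members in every group.

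G6PC came close to the detection limit with siMCRS1. It had 40.2 and 14.3 normalized counts in DMSO with NTG against 11.1, 0 and 4.30 with siMCRS1, which are 42 and 15 reads against 10, 0 and 3. In EPZ-6438 it had 123, 93.8 and 164 with NTG against 8.80 and 3.55 with siMCRS1, which are 114, 132 and 156 reads against 11 and 4. The groups did not overlap in either treatment. The log2 fold change in DMSO, -2.65 (SE 0.87, adjusted p = 0.0273), was lost in 5 alternatives, among them leaving out DMSO NTG 1 (adjusted p = 0.205) or DMSO siMCRS1 2 (0.0556). Its size ranged from -3.82 with a pseudocount of 0.1 to -1.65 without DMSO siMCRS1 2, and was -1.70 with a pseudocount of 5, -3.36 without DMSO NTG 3 and -3.45 without DMSO siMCRS1 1. In EPZ-6438 it was -4.22 (SE 0.87, adjusted p = 0.002), or -3.57 with a pseudocount of 5, and held in every alternative.

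SLC37A4 moved further than SLC2A2 with siMCRS1. SLC37A4 had 1441 and 1057 normalized counts in DMSO with NTG against 341, 174 and 218 with siMCRS1, and 1693, 1216 and 1359 in EPZ-6438 with NTG against 288 and 127. Its log2 fold changes were -2.39 (SE 0.34, adjusted p = 0.000302) and -2.87 (SE 0.34, adjusted p = 7.04e-05), the latter -3.46 without EPZ-6438 siMCRS1 A and -2.29 without B. SLC2A2 had 1832 and 1737 against 1099.5, 1188 and 977 in DMSO, and 1974, 1803 and 2126 against 1400.0 and 1167 in EPZ-6438. Its log2 fold changes were -0.72 (SE 0.12, adjusted p = 0.000882) and -0.62 (SE 0.12, adjusted p = 0.00168). Both transporters separated the groups in each treatment, and the 95% confidence intervals of SLC37A4 (-3.15 to -1.63 and -3.63 to -2.12) did not meet those of SLC2A2 (-0.99 to -0.44 and -0.89 to -0.35).

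PPARGC1A had 291 and 357 normalized counts in DMSO with NTG against 179, 159.7 and 172 with siMCRS1, and 301, 479 and 455 in EPZ-6438 with NTG against 317 and 225. Its log2 fold change in DMSO was -0.92 (SE 0.22, adjusted p = 0.00605), and the call was lost without DMSO NTG 3 (adjusted p = 0.0579). In EPZ-6438 it was -0.59 (SE 0.22, adjusted p = 0.0429) with overlapping groups, and 12 of 21 alternatives lost the call. PC had 1617 and 1427 in DMSO with NTG against 1431, 1312 and 1162, and 1709, 1952 and 1641 in EPZ-6438 with NTG against 1485 and 1149. It passed in EPZ-6438 only, at -0.43 (SE 0.14, adjusted p = 0.0235), and not without EPZ-6438 NTG 2 (0.0716) or EPZ-6438 siMCRS1 B (0.263). In DMSO its value was -0.23 (adjusted p = 0.206), which passed with equal totals (0.0139). FOXO1 had 1316 and 1384 in DMSO with NTG against 1481, 1579 and 1670.1, and 1081, 1191 and 1125 in EPZ-6438 with NTG against 1469 and 1517. All siMCRS1 libraries lay above their NTG libraries. The log2 fold change was 0.22 (adjusted p = 0.082) in DMSO and 0.40 (SE 0.10, adjusted p = 0.00536) in EPZ-6438, but with equal totals these became -0.01 and 0.16 (adjusted p = 0.204), so the direction of FOXO1 in DMSO depended on the scaling.

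FBP1 had 8 and 10 reads in DMSO with NTG against 3, 2 and 0 with siMCRS1, and 16, 13 and 15 in EPZ-6438 with NTG against 3 and 0. The siMCRS1 libraries were at or below 3 reads and below all NTG libraries. When the minimum mean was lowered to 1, which let FBP1 be tested among 19770 genes, its log2 fold change was -1.99 (adjusted p = 0.0464) in DMSO and -2.99 (adjusted p = 0.00505) in EPZ-6438.

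**Figure D2:**
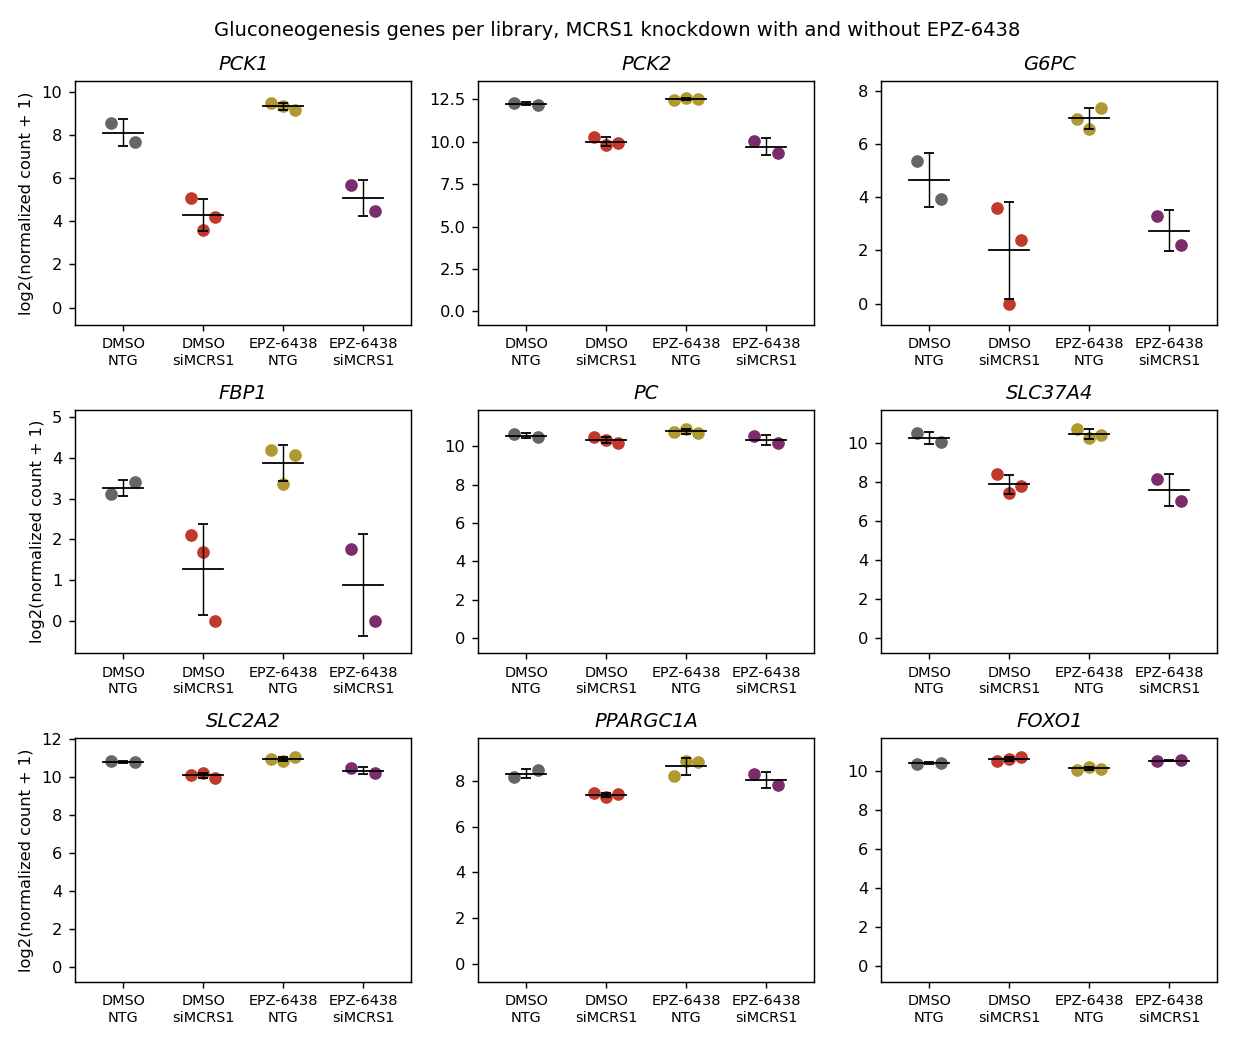
Level of each member as log2(normalized count + 1) (vertical axis, a log scale) in the 5 DMSO libraries (2 NTG and 3 siMCRS1) and the 5 EPZ-6438 libraries (3 NTG and 2 siMCRS1), shown as points with the mean (line) and SD (bar). PCK2 lies at 4652 to 6160.1 normalized counts in NTG and at 653 to 1263 with siMCRS1, and FOXO1 lies higher with siMCRS1 than with NTG on this scale, although in DMSO it does not once libraries are rescaled to equal totals (-0.01).

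**Figure D3:**
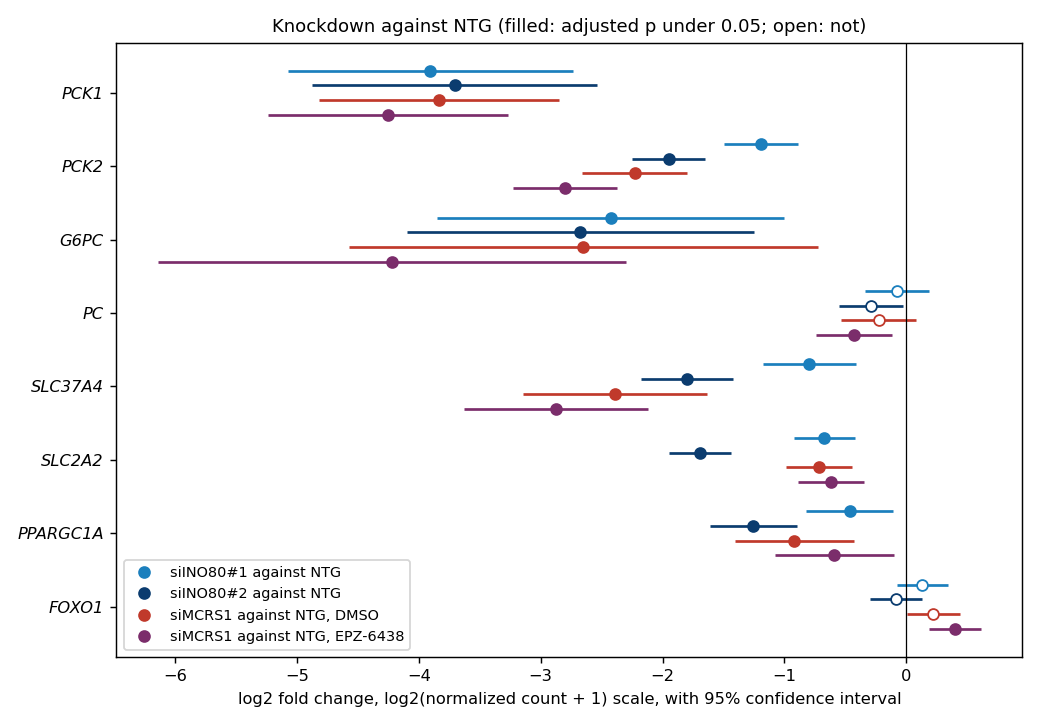
Log2 fold change of the 8 tested members (horizontal axis, log2(normalized count + 1) scale) in the 4 knockdown contrasts, as points with 95% confidence intervals, filled where the adjusted p was under 0.05. PCK1 lies between -4.25 and -3.70 in all 4, PC between -0.43 and -0.08, and FOXO1 on both sides of 0.

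Inhibition of EZH2 did not bring any member past the main limma test. PCK1 and G6PC passed with NTG in 2 alternatives, DESeq2 and a limma fit with a block by column number, both chosen after seeing the data. The blocked fit gave them adjusted p-values of 0.0306 and 0.0413 and called 1161 of 14327 genes. With NTG, 0 of 8 members were called against DMSO, where 0.384% of all genes were called by limma. At an unadjusted p under 0.05 there were 3 members (PCK1, G6PC and FOXO1) and 2443 genes in all, and edgeR called 0 of 8 members, where it called 0.475% of all genes, and DESeq2 2 of 8, where it called 5.04%, both on reads recovered from the normalized counts. PCK1 had 371 and 203 normalized counts in DMSO and 724, 642 and 578 in EPZ-6438, a log2 fold change of 1.23 (95% confidence interval 0.24 to 2.21, adjusted p = 0.203). G6PC had 40.2 and 14.3 against 123, 93.8 and 164, a log2 fold change of 2.31 (0.39 to 4.23, adjusted p = 0.217). All EPZ-6438 libraries lay above both DMSO libraries for these genes, and DESeq2 gave them adjusted p-values of 0.025 and 0.0149. FOXO1 lay lower in all EPZ-6438 libraries, at a log2 fold change of -0.25 (-0.47 to -0.04, adjusted p = 0.222). The other members had log2 fold changes of 0.14 (SLC2A2) to 0.32 (PPARGC1A), and FBP1 had 44 reads over 3 EPZ-6438 libraries against 18 over 2 DMSO libraries.

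With siMCRS1, 0 of 8 members were called between EPZ-6438 and DMSO, where 0.0908% of all genes were, and PPARGC1A alone had an unadjusted p under 0.05 (1305 genes did). Its values were 317 and 225 normalized counts against 179, 159.7 and 172, a log2 fold change of 0.65 (0.16 to 1.14, adjusted p = 0.385). PCK1 was at 0.81 (-0.18 to 1.79) and G6PC at 0.74 (-1.18 to 2.66). edgeR and DESeq2 also called 0 of 8, against 0.126% and 1.05% of all genes. The interaction, which asks whether siMCRS1 acted differently in EPZ-6438 than in DMSO, gave 0 of 8 members called where 0% of all genes were, with 0 members and 336 genes at an unadjusted p under 0.05, and 0 of 8 by edgeR and DESeq2, which called 0% and 0.0350% of all genes. PCK2 had the interaction nearest to the threshold, -0.57 (95% confidence interval -1.18 to 0.03, unadjusted p = 0.0615), and that of G6PC was -1.57 (-4.29 to 1.14), so that sizeable differences between treatments remain within the error of 2 to 3 libraries per group.

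**Figure D4:**
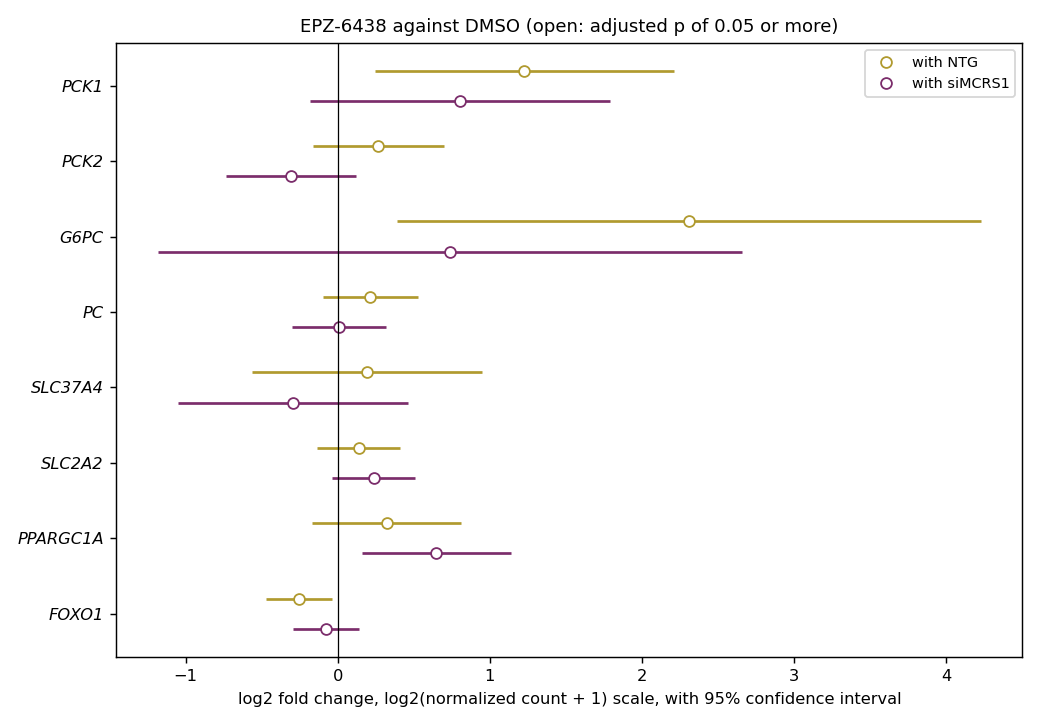
Log2 fold change of EPZ-6438 against DMSO for the 8 tested members (horizontal axis, log2(normalized count + 1) scale), with NTG and with siMCRS1, as points with 95% confidence intervals. All points are open, as none had an adjusted p under 0.05, and the widest interval is that of G6PC with NTG or siMCRS1, centred on 2.31 and 0.74.

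The promoters of G6PC and PCK2 are shown because these genes fell in all 4 knockdown contrasts while standing far apart in level. The RefSeq table (GRCh38.p14) gave 300 bases, 250 before and 50 after the start, for 8 of 9 members, PCK1 being the one without an entry. Capitals mark the words searched on both strands, which were the FOXO core TGTTTAC, the CRE TGACGTCA and its core TGACG, the HNF1 half-site GTTAAT, an HNF4 site CAAAGTCC, the amino acid response word TGATGNAA, the CCAAT box and the TATA box TATAAA. The core TGACG lies within TGACGTCA, so that every match of the longer word is also a match of the shorter. The sequences are those of chr17:42900549-42900848 (plus strand) and chr14:24094061-24094360 (plus strand).
G6PC: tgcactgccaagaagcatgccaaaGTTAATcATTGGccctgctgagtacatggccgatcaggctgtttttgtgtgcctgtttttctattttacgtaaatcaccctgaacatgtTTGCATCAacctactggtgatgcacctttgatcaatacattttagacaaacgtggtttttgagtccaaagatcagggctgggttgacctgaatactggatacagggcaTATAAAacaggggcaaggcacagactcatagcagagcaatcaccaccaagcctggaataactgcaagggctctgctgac
PCK2: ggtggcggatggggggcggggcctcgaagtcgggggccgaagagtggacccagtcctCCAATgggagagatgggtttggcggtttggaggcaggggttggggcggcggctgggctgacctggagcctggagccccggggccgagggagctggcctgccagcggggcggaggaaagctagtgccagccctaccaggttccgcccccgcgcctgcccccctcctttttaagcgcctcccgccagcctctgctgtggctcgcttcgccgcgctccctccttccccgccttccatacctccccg
The G6PC promoter held GTTAAT 226 bases before the start, TGATGNAA on the opposite strand at 137 and TATAAA at 29 bases before it, besides a CCAAT box on the opposite strand at 219. Of the words searched, the PCK2 promoter held a CCAAT box only. Of 35114 RefSeq promoters of this length, 6.88% held GTTAAT, 3.62% TGATGNAA, 11.5% TATAAA and 34.6% CCAAT. G6PC was 45.7% G and C over the window and PCK2 71.7%. The FOXO core, found in 3.42% of promoters, the full CRE (1.85%) and CAAAGTCC (1.20%) were in none of the windows of these 8 members, and the CRE core TGACG (24.6%) was in those of PC and PPARGC1A. A match is a description of the sequence, and a word may lie outside the window. Only these exact words were searched. Their absence does not show that a window lacks sites of the same factors that are spelled differently.

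The other genes of the pathway and its control were counted from lists, with 4 values each in a fixed order, first siINO80#1 and siINO80#2, and then siMCRS1, first in DMSO. Differences between the INO80 and MCRS1 experiments were not tested. Of all genes tested, 20.8%, 28.4%, 24.6% and 26.9% were called lower and 20.7%, 26.6%, 23.1% and 26.8% higher. With libraries rescaled to equal totals, 3276 and 4526 of 14034 genes and 5098 and 5313 of 14312 genes were called lower. The genes called in all were then 5441, 7382, 6992 and 7609. Genes that run glucose the other way, into glycolysis, moved in both directions. Of 12 tested, 5, 6, 6 and 5 were lower and 4, 3, 5 and 5 higher. PKLR, the pyruvate kinase of liver, had log2 fold changes of -1.94, -2.12, -2.37 and -3.19, and GCKR, the regulator of glucokinase, -1.39, -1.95, -2.46 and -2.87. HK1, the hexokinase of most tissues, had 1.08, 2.15, 1.92 and 1.86. All of these passed in all 4 contrasts (largest adjusted p = 0.000194). The median of the list was -0.47, -0.61, -0.80 and -0.78. With equal totals 6, 6, 6 and 7 genes were lower and 2, 2, 4 and 5 higher.

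Among genes that bring carbon into the pathway more were lower than higher. Of 14 tested, 10, 10, 8 and 7 were lower and 1, 1, 2 and 2 higher, with medians of -0.47, -0.78, -0.44 and -0.41. GPD1, which links glycerol to the pathway, had the deepest fall (-1.85, -2.04, -3.30 and -3.73). The mitochondrial pyruvate carrier subunits MPC1 (-0.53, -1.39, -0.71 and -0.67) and MPC2 (-0.74, -1.17, -0.49 and -0.49), cytosolic malate dehydrogenase MDH1 (-0.85, -1.15, -0.80 and -0.60) and the oxoglutarate carrier SLC25A11 (-0.54, -0.76, -1.14 and -1.32) passed in all 4. GK, glycerol kinase, was higher in all 4 (0.60, 0.47, 0.42 and 0.51). Of the reversible steps shared with glycolysis few passed. Of 10 tested, 2, 3, 1 and 2 were lower and 1, 1, 0 and 1 higher.

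PCK2 is a known target of ATF4, the transcription factor of the amino acid response, and it was set beside other ATF4 targets. Of 13 tested, 10 and 11 were lower with the INO80 siRNAs and 0 higher, with medians of -0.84 and -1.14. With siMCRS1, 2 and 2 were lower and 4 and 5 higher, with medians of 0.11 and 0.28. With equal totals 5 and 5 were lower and 3 and 3 higher, where 5098 and 5313 of all 14312 genes tested were lower. PHGDH, of serine synthesis, had -1.77 and -2.05 with the INO80 siRNAs against -0.28 and -0.31 with siMCRS1, where it did not pass. ASNS, asparagine synthetase, had -1.42 and -1.27 against 0.11 and 0.32, which did not pass. ATF3 had -0.09 and -0.23, which did not pass, against 1.99 and 2.66, which did. PCK2 was lower in all 4. The INO80 and MCRS1 contrasts come from separately normalized tables.

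FOXO1 targets other than the members did not move as a block. Of 11 tested, 3, 4, 3 and 3 were lower and 4, 3, 5 and 4 higher. APOC3, an apolipoprotein (-2.13, -3.41, -2.02 and -2.34), and MTTP, which loads lipid onto apolipoprotein B (-1.56, -2.02, -1.33 and -1.12), were lower, as was the transcription factor KLF15 (-1.59, -2.11, -1.96 and -2.35), while TXNIP, an inhibitor of thioredoxin, was higher (1.24, 1.74, 1.08 and 0.86). IGFBP1, an insulin-repressed gene of the liver, had 0.07 and -1.25 with the INO80 siRNAs, which did not pass, and 1.52 and 2.37 with siMCRS1, which did. The list medians were 0.01, -0.38, 0.26 and 0.18.

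Among 23 transcriptional regulators of the pathway 6, 9, 7 and 8 were lower and 5, 5, 7 and 5 higher, with medians of 0.15, -0.09, 0.07 and 0.03. For a list of this size both counts lay near the shares of all genes. Those shares were 20.8%, 28.4%, 24.6% and 26.9% lower and 20.7%, 26.6%, 23.1% and 26.8% higher. The regulators named below are ones that were lower, and those that were higher are counted only. HNF4A, the central hepatocyte factor that binds at PCK1 and G6PC, was lower in all 4 (-0.45, -1.02, -0.55 and -0.55). CREB3L3, a liver factor of fasting (-1.32, -0.95, -2.26 and -2.002), PPARA, the fatty acid receptor (-0.71, -0.70, -0.71 and -0.71), and NR0B2, a repressor of nuclear receptors (-0.65, -0.83, -1.63 and -1.65), were lower too. CEBPA had -0.23 with siINO80#1, which did not pass, and -1.87, -0.64 and -0.89 in the others, and it differed between the INO80 siRNAs (-1.64, adjusted p = 0.00383). Of 8 members tested, 4 were lower with siINO80#2 than with siINO80#1, and the others, PCK1 among them, did not pass. Against NTG, 5 of 9 hepatocyte markers were lower with siINO80#2 (ALB -0.57, APOA1 -0.84, TTR -0.59, TF -0.98 and HNF4A) and 1 of 9 with siINO80#1. Of these markers, 4 of 9 were lower in the direct comparison of the siRNAs, where 12.6% of all genes were called lower. Their part in the members' result was not tested. With siMCRS1, 1 of 9 markers was lower in DMSO, and 1 was lower and 1 higher in EPZ-6438.

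Of 15 genes of insulin and glucagon signalling tested, 0, 2, 3 and 3 were lower and 6, 7, 8 and 8 higher, with medians of 0.19, 0.21, 0.35 and 0.42. This lean to higher values was sensitive to scaling, as with equal totals 2, 2, 5 and 4 were lower and 6, 2, 4 and 5 higher. Lower calls among all genes then numbered 3276, 4526, 5098 and 5313. TRIB1, a pseudokinase that partners a ubiquitin ligase (1.06, 1.11, 1.62 and 1.71), the insulin receptor substrate IRS1 (0.49, 0.33, 0.72 and 0.60) and the AMPK subunit PRKAA2 (0.70, 0.56, 0.54 and 0.70) were higher in all 4, and IRS2 (0.97, 0.34, 1.90 and 1.87) passed and was higher in all but siINO80#2.

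Paralogs of the members did not follow them as a group. Of 10 tested, 3, 3, 5 and 5 were lower and 4, 5, 5 and 5 higher, with medians of 0.28, 0.34, 0.03 and 0.07. G6PC3, the glucose-6-phosphatase of most tissues, was lower (-0.52, -0.42, -0.82 and -1.13), as was the sugar phosphate carrier SLC37A2 (-0.93, -0.80, -1.20 and -1.58). FOXO3 was higher (0.90, 0.96, 1.39 and 1.38) where FOXO1 had values of 0.13, -0.08, 0.22 and 0.40, and PPARGC1B was higher (0.44, 0.56, 0.63 and 0.68) where PPARGC1A was lower. The glucose transporter SLC2A1 (GLUT1) had 0.07, which did not pass, and 0.35, -0.57 and -0.45, and SLC2A3 (GLUT3) had 0.57 and -0.16, which did not pass, and 1.41 and 1.89. SLC2A2 itself was lower in all 4.

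Leaving out 1 library moved some list counts by over 1.5 times. With siMCRS1 in DMSO and without DMSO NTG 1, the genes called were 5 of 14 for carbon entry, 3 of 13 for ATF4 targets, 5 of 15 for insulin and glucagon signalling and 9 of 23 for regulators, where 10, 6, 11 and 14 were called with all libraries. Signalling genes called were also 6 without DMSO siMCRS1 2 or 3. In EPZ-6438 and without siMCRS1 B, 6 signalling genes, 4 ATF4 targets, 1 reversible step and 0 hepatocyte markers were called, where 11, 7, 3 and 2 were. The 1 and the 0 were also found without siMCRS1 A and without NTG 2, respectively. With siINO80#1, the genes of glucose use called went from 9 to 5 without NTG C, siINO80#1 A or siINO80#1 B, regulators from 11 to 7 without NTG C or siINO80#1 C, and signalling genes went from 6 to 11 without siINO80#2 C. With siINO80#2, 7 reversible steps were called in place of 4 without siINO80#2 B, while calls among all genes went from 7725 to 7721. In the other settings named here, calls among all genes moved in the same direction as the list counts. With siINO80#1 they went from 5833 to 4775 without NTG C, to 4719 without siINO80#1 C and to 6920 without siINO80#2 C. With siMCRS1 in DMSO they went from 6830 to 5617 without siMCRS1 2 and to 6042 without siMCRS1 3. How much of each change was particular to its list was not tested.

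The genes whose pattern was most like that of PCK1 and PCK2 were sought among the 11420 genes whose mean reached 50 normalized counts in both tables, by the root mean square difference over 5 differences of group means from control (19 libraries). Nearest to PCK1 were SLC22A7, an organic anion transporter of the liver (0.49), CYP19A1, aromatase (0.60), and GSTA2, a glutathione transferase whose reads may be shared with close paralogs (0.79), where the median over all genes was 3.30. SLC22A7 had log2 differences of -3.18 and -4.03 with the INO80 siRNAs, and, each against DMSO NTG, of -3.25 for siMCRS1 in DMSO, 0.73 for NTG in EPZ-6438 and -3.02 for siMCRS1 in EPZ-6438. Nearest to PCK2 were ABCB6, a mitochondrial porphyrin transporter (0.13), HAUS4, of the spindle (0.18), and INHBC, an inhibin subunit of the liver (0.20), against a median of 1.84. FBP1 was too low for this search.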

How the data were processed

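mRNA-seq libraries of HepG2 cells (9 in the INO80 experiment, 10 in the EPZ-6438 experiment) were analysed from 2 tables. The authors deposited a never-negative signal, made by dividing the read counts of each gene symbol by 1 size factor per library, as the values themselves show. The labels describe stranded mRNA libraries and name kallisto, DESeq2 and GRCh38 in the processing notes without roles or versions; the strand setting is not given in the sources used here. In every library 100% of the values were whole multiples of a single step (tolerance 0.001), and dividing by it recovered the reads. The study's publication does not cover these libraries in its text.

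The log2(value + 1) of each value was used. A gene whose mean over a table reached 10 was tested with limma 3.58.1 (trend, all groups of a table in 1 fit) in R 4.3.3, two-sided, with Benjamini-Hochberg adjustment over all genes tested and a threshold of 0.05. Fold changes on this scale understate changes of low genes. edgeR 4.0.16 and DESeq2 1.42.0 on the recovered reads, and a block by column number, were alternatives chosen after seeing the data. The limma and edgeR steps were checked on simulated data, and DESeq2 was run there but not held to the same check. Genes were changed there only for siINO80#1 against NTG and siMCRS1 against NTG in DMSO. They were far fewer than the genes called in these contrasts. The check thus does not cover changes as broad as those seen, nor the EPZ-6438 contrasts. The tables were normalized separately and compared only within each. Within-group pairs of libraries differed by more than sampling noise (chi-square per degree of freedom 9.45 to 121), and none was counted as a copy. Counting floors cover counting error only.

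The members and lists were chosen with earlier results of these data known. All 9 members are named, as are selected genes of the lists and the 3 genes most like PCK1 and PCK2. The selected genes were mostly ones that passed or that were set beside a member. A gene of the list of reversible steps is counted but not reported here by name. Groups came from the labels, columns of the EPZ-6438 table from their names. Positions, promoters and synonyms came from RefSeq (GRCh38.p14), and transcript lengths and 31-base words from the canonical transcripts of GENCODE v44, whose use by the authors is not given. Figures were drawn with matplotlib 3.10.9 in Python 3.11.15. Alternatives were a pseudocount of 0.1 or 5, a minimum mean of 1 or 50 or none, equal totals, quantile normalization, a fit without a trend, a fit of only the groups compared, the replicate block and leaving out each library.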

Additional observations from a re-analysis of the deposited data

How the results depend on the processing

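Of 30 member effects called over all contrasts, 23 kept their direction and their call in every alternative, 7 lost the call in at least 1, and 0 reversed. Of 34 effects not called, 4 passed in at least 1 alternative. The count of members called for EPZ-6438 against DMSO with NTG was 0 and became 2, PCK1 and G6PC, with DESeq2 on recovered reads; the cause was not tested. With 1 library left out, the number called was 4 to 6 with siINO80#1, 6 to 7 with siINO80#2, 5 to 6 with siMCRS1 in DMSO and 6 to 8 with siMCRS1 in EPZ-6438. Where this left 1 library in a group, that library was assumed to vary like the other groups. Rescaling to equal totals moved the lower share of all calls from 50.1% to 60.2% with siINO80#1 and from 51.7% to 61.3% with siINO80#2.

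The fit with a replicate block by letter in the INO80 experiment called 6 members with siINO80#1, 6 with siINO80#2 and 4 between the siRNAs, as the fit without it did. Deviations of same-letter libraries had a mean correlation of 0.10 over 9 pairs (-0.08 to 0.26) against -0.05 over 18 other pairs. Of 9 libraries 3 correlated best with their own letter, so the letters were not taken as pairs. Deviations were taken from group means, here and for the column numbers below. A positive mean within pairs therefore goes with a negative mean between them, and these means are not independent. In the EPZ-6438 experiment the columns carry numbers in 3 groups and letters in siMCRS1 with EPZ-6438, so a replicate block by column number, chosen after seeing the data, was fitted to the 8 numbered libraries. For EPZ-6438 against DMSO with NTG it called 2 members (PCK1 at 1.40, adjusted p = 0.0306, and G6PC at 2.91, adjusted p = 0.0413) and 1161 of 14327 genes, against 0 members and 59 genes without the block. For siMCRS1 in DMSO it called 7 members, PC among them (adjusted p = 0.0367), against 6. Deviations of same-number libraries had a mean correlation of 0.21 over 7 pairs (-0.02 to 0.30) against -0.10 over 14 others. Of the 8 libraries, 6 correlated best with their own number in both other groups. The 2 libraries numbered 2 could not do so, since DMSO NTG has no column of that number. The main fit did not take the numbers as pairs, since they are not those of the labels and 1 pair lay below 0.1. That pair was DMSO siMCRS1 2 with EPZ-6438 NTG 2, at -0.02, and every other same-number pair lay at 0.16 or above. The blocked fit left 3 residual degrees of freedom. The mean correlation was nonetheless higher within numbers than between them, and whether the numbers mark paired cultures was not tested. The count of 0 members called for EPZ-6438 against DMSO with NTG is therefore that of limma and edgeR without the block. DESeq2, also without the block, called 2. G6PC and FBP1 are limited by their low counts.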
